A study of Mus musculus with 6 samples.

Results

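The genes described here are 7 members of the small proline-rich protein family (Sprr1a, Sprr2a1, Sprr2a2, Sprr2a3, Sprr2b, Sprr2d and Sprr2h) and Ly6d, 8 of the 32219 genes in a deposited expression table of mouse intestine. They were picked by name, with the difference between knockout and wild type already known for some of them, so their differences between the groups are given as a description with no test. The table holds 6 RNA-seq libraries, 3 labelled KO and 3 labelled WT, from whole tissue that the labels describe as epithelium, immune cells and enteric neurons and the design text as total duodenum. The title names the receptor GPR41 (Ffar3) and the RNA helicase DHX9, but no label used here says which gene the KO libraries lack, gives strain, age or sex, or says that libraries came from separate animals. P-values therefore measure only the spread between these libraries. The Xist and Y-linked values given below show that each group holds material of more than 1 animal. Whether every library is a separate animal is not known, so part of the spread may be technical. Dhx9 was at 6.17 and 6.08 in KO 2 and KO 3, against 5.94, 6.01 and 5.97 in WT, and Ffar3 at 0.35 and 0.59 in KO, against 0.60, 0.18 and 0.46 in WT. Dhx9 was not lower in KO, and Ffar3 was too low in every library to check the labels. The values are taken as log2(abundance + 1). The abundance unit is not given, so levels are compared between libraries for 1 gene and not between genes.

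Small proline-rich proteins are short proteins built from proline-rich repeats. In skin and other stratified epithelia, transglutaminases cross-link them into the cornified envelope, the tough shell under the membrane of the outermost cells. Their genes lie side by side in the epidermal differentiation complex, and in the mouse intestine Sprr2a is known as an epithelial gene that responds to microbes. Ly6d belongs to the Ly6 family of small proteins held on the cell surface by a lipid anchor, and in mice it is used as a marker of B lineage progenitors and of some epithelial cells. Fewer cells of a type and less RNA per cell cannot be told apart in whole tissue.

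KO 1 lists every gene with a mean of at least 1 in the other libraries at 0 on chromosomes 2 to 9, X, Y and M and on most of chromosome 19. All 7 Sprr members lie on chromosome 3, so KO 1 holds no value for them and its zeros were treated as missing. Ly6d lies on chromosome 15, which KO 1 covers, and its value there was divided on the linear scale by 2.12, the median factor by which KO 1 exceeds the other libraries. KO 1 also stood apart in gut position: Gata4, which marks duodenum and jejunum, was at 5.19 in KO 1 after rescaling, against 0.43 to 0.63 in the other 5 libraries, and Fabp6, the ileal bile acid binding protein, was at 3.91 in KO 1, against 8.16 to 8.76 elsewhere. High Fabp6 and Slc10a2 (5.98 to 6.76), the ileal bile acid transporter, and low Gata4 go against a duodenal label for these 5 libraries. Comparisons below use KO 2 and KO 3 against WT 1, WT 2 and WT 3, and KO 1 is named wherever it enters. Xist, the RNA that coats the inactive X chromosome, was at 7.07 in KO 3, 7.25 in WT 1 and 6.85 in WT 3, but at 0.21 in KO 2 and 0.20 in WT 2. The Y-linked genes Uty, Kdm5d, Ddx3y and Eif2s3y were at 3.86 to 4.97 in KO 2 and WT 2 and at most 0.03 in the other 3, so each group mixes libraries with and without Y-linked transcripts.

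The copies differ in how well reads can tell them apart, which sets how each value can be read. The coding sequences of Sprr2a1 (chr3:92219092-92219340, GRCm38, plus strand) and Sprr2b (chr3:92317449-92317742, plus strand) are shown because their levels differed in pattern across the libraries. They come from the GENCODE vM21 transcripts. In each line, capitals mark bases that differ from the other gene or that it lacks.
Sprr2a1: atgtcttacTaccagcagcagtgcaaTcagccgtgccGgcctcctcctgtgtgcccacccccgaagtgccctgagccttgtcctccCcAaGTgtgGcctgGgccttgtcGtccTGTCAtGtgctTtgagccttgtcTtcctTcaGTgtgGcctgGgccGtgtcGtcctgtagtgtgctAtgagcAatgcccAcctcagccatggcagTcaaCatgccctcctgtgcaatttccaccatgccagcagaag
Sprr2b: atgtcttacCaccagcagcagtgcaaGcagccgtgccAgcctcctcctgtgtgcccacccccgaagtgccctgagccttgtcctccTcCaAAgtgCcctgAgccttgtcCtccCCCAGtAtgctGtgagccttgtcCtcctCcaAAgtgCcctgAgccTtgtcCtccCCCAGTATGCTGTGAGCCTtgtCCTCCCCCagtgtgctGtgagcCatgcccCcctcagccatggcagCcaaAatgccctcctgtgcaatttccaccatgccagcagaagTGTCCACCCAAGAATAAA
The coding sequences, given without the stop codon, are 249 bases in Sprr2a1 and 294 bases in Sprr2b, with 74.5% identity over their alignment (30 substitutions and 45 gap positions). Sprr2a2 has the same 249 bases as Sprr2a1, with 0 substitutions, and Sprr2a3 differs from them at 3 bases. Sprr1a, Sprr2d and Sprr2h are further away, at 42.1%, 69.3% and 61.4% identity to Sprr2a1.

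Over whole transcripts, 96.5% of the 50-base words of Sprr2a2 and 96.3% of those of Sprr2a1 also occur in another annotated gene, in most cases in each other, and so do 61.1% of those of Sprr2a3. For Sprr2b the share is 14.1%, all of it with the Sprr2a copies, and for Sprr2d it is 4.27%. Sprr1a, Sprr2h and Ly6d share 0 such words with any other gene, and no member shares one with a transcript of the opposite strand. The way the authors' counting divided reads among copies is not given in the sources used here, so the separate values of Sprr2a1 and Sprr2a2 are uncertain, while Sprr2b, Sprr1a and Ly6d can largely be read on their own.

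**Figure D1:**
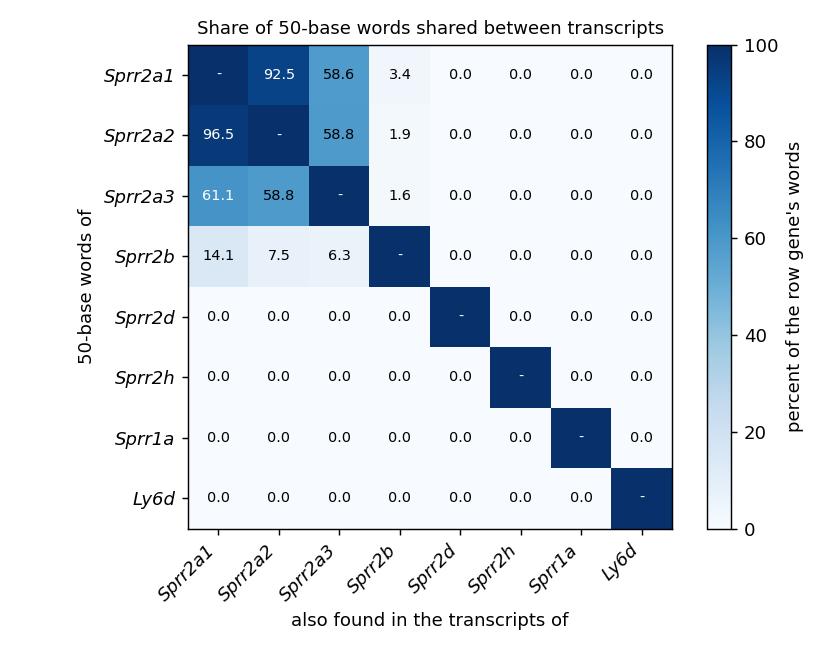
Percent of each row gene's 50-base transcript words (GENCODE vM21) that also occur in the transcripts of the column gene. Sprr2a1 and Sprr2a2 share 92.5% to 96.5% of their words, whereas 14.1% of the Sprr2b words occur in Sprr2a1 and Sprr1a, Sprr2h and Ly6d share none.

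The windows around the annotated gene starts also group the copies, although they do not cover the same stretch of each gene. RefSeq windows of 300 bases, 250 before and 50 after each start, were found for 7 of the 8 members, all but Ly6d. The windows of Sprr2a1 (chr3:92215585-92215884, GRCm38.p6, plus strand) and Sprr2b (chr3:92316455-92316754, plus strand) are shown, since they differ in the motifs that were looked for. Capitals mark matches on either strand to TATAAA (the TATA box), TGAGTCA (the AP-1 site), ATTTGCAT (the octamer) or TTC and GAA with 4 bases between (the STAT site). The motifs were chosen for this comparison with the sequences in view.
Sprr2a1: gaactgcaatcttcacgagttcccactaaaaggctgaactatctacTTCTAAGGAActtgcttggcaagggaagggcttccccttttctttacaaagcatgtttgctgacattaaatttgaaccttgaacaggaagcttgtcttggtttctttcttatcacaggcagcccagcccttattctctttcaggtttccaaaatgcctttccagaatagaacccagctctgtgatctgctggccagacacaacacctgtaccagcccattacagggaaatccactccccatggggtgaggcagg
Sprr2b: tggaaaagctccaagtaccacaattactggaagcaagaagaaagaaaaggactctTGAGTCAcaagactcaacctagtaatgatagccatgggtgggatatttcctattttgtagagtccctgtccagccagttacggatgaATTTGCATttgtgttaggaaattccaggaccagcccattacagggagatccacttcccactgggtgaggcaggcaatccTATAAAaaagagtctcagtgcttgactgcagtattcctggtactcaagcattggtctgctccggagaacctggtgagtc
The Sprr2a2 window has all 300 bases of the Sprr2a1 window, and the Sprr2a3 window, shifted by 28 bases, matches it at 272 of 272 bases. The TATA box begins at position -29 from the start in Sprr2b, Sprr2d and Sprr2h, which also hold the octamer and the AP-1 site. The windows of Sprr2e, Sprr2f, Sprr2i and Sprr2k, which are not members, hold the same motifs. Of the 14 Sprr windows found, members and others, 10 hold the TATA box, 8 the AP-1 site, 7 the octamer and 3 the STAT letters. The 3 Sprr2a windows hold the STAT letters and none of the other 3 motifs. However, the Sprr2a1 window ends with letters that in the Sprr2b window come just before the TATA box. The place of that box thus lies outside the Sprr2a windows, so its absence from them does not show that these genes lack it. Sprr1a has a TATA box and 2 AP-1 sites. Over all 32851 windows of that length, 13.6% hold TATAAA, 5.20% TGAGTCA, 1.74% ATTTGCAT and 6.95% the STAT letters. A match is a run of letters, not a binding site. Whether these annotated starts are the ones used in gut was not tested.

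Of the 8 members, 6 were above 0 in at least 3 of the 5 libraries. Sprr2d was listed at 0 in all 5, and Sprr2h was listed at 0 in 4 and at 0.11 in KO 3. The 8 other Sprr genes of the table (Sprr1b, Sprr2e, Sprr2f, Sprr2i, Sprr2j-ps, Sprr2k, Sprr3 and Sprr4) were also listed at 0 in all 5 libraries. The Sprr members with values in at least 3 libraries were thus the 3 Sprr2a copies, Sprr2b and Sprr1a. Summed over the 7 Sprr members, linear abundance made up 0.215% and 0.310% of the total in KO 2 and KO 3, against 0.345%, 0.240% and 0.328% in WT 1, WT 2 and WT 3.

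For the whole table, limma without KO 1 called 1 of 22047 genes at an adjusted p under 0.05, a share of 0.00454%, and it was not a member. It was Gm49380, a predicted gene named here after its values were seen, at 1.78 and 1.82 in KO 2 and KO 3, against 0.00, 0.07 and 0.00 in WT (limma adjusted p = 0.0179). At an unadjusted p under 0.05 there were 491 genes, 2.23%. That unadjusted share was 1.06% with all 6 libraries as deposited (0 genes called), 2.09% with rescaled KO 1 values added for covered genes (1 called), 3.07% with the replicate number as a block (0 called) and 3.17% with Xist as a covariate (0 called). Groups that did not overlap were seen in 13.6% of all genes tested, 9.82% with KO higher and 3.77% with KO lower, and in 6.23% of the genes KO 1 covers once KO 1 was included after rescaling. Among the 6 members above the low-value limit, Ly6d was higher and Sprr2b lower with no overlap, and the other 4 overlapped. The members were chosen with this contrast known, so nothing is read from that count.

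**Figure D2:**
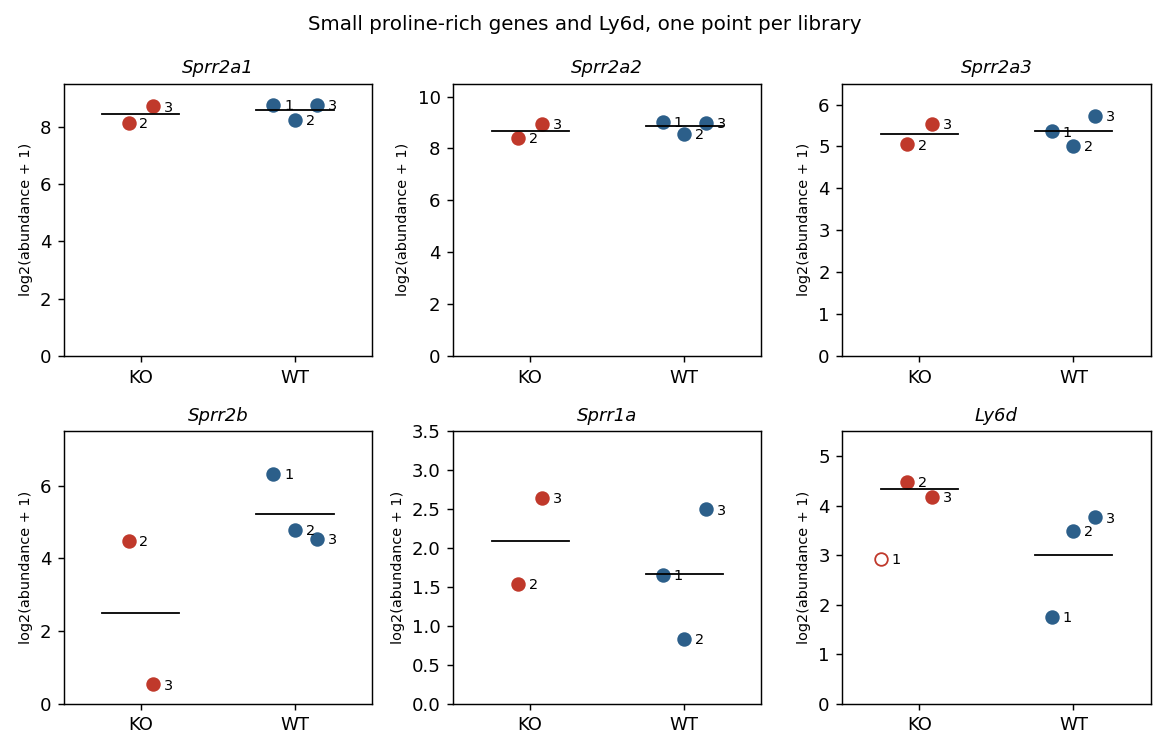
Deposited log2 values by library for the 6 members detected in at least 3 libraries, KO left and WT right; numbers are replicate numbers and bars are group means of KO 2 and KO 3 and of WT 1 to WT 3. The open Ly6d point is KO 1 after rescaling, at 2.93, and is not part of the bar; Sprr2b in KO 3, at 0.53, and Ly6d in WT 1, at 1.76, are the low points.

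The Sprr2a copies changed little between the groups and more between libraries of the same group. Sprr2a1 (chr3:92215799-92221911) was at 8.14 and 8.71 in KO 2 and KO 3, against 8.76, 8.24 and 8.76 in WT 1, WT 2 and WT 3. Sprr2a2 (chr3:92215920-92256724) was at 8.41 and 8.96 in KO 2 and KO 3, against 9.02, 8.57 and 8.99 in WT. Sprr2a3 (chr3:92285417-92291405) was at 5.05 and 5.54 in KO, against 5.37, 5.02 and 5.73 in WT. For each copy the low libraries were KO 2 and WT 2, and KO 3 lay within the WT range. The mean of Sprr2a1 was 8.42 ± 0.41 in KO (SD, n = 2) and 8.59 ± 0.30 in WT (SD, n = 3), a log2 difference of -0.16. The differences of Sprr2a2 and Sprr2a3 were -0.17 and -0.08. All 3 are smaller than the SD within either group.

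The gap between Sprr2a2 and Sprr2a1 was 0.25 to 0.28 in KO and 0.22 to 0.33 in WT, a near-constant gap that says nothing of the copies themselves, since most of their sequence is shared and the division of reads is unknown. Because the split between copies is uncertain, the level was also summed over the 7 members before taking the log, which gives 9.66 ± 0.36 in KO (SD, n = 2) and 9.86 ± 0.29 in WT (SD, n = 3). The difference of -0.20 was likewise within the spread, and it was 0.05 without KO 2 and -0.46 without KO 3. On the linear scale, with base 2 assumed, the values of Sprr2a1 and Sprr2a2 made up 88.6% (WT 1) to 94.7% (KO 3) of that sum. The abundance unit is not given, so this share describes the makeup of the sum and not the relative amounts of the genes. The sum thus largely repeats the level of Sprr2a1 and Sprr2a2 and says little of Sprr2b or Sprr1a.

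Single libraries separated the Sprr2a copies in another way. Sprr2a1 was at 8.71, 8.76 and 8.76 in KO 3, WT 1 and WT 3, which have Xist, and at 8.14 and 8.24 in KO 2 and WT 2, which have Y-linked transcripts. The difference between KO 3 and KO 2 was 0.58 for Sprr2a1, 0.54 for Sprr2a2 and 0.49 for Sprr2a3, and WT 1 and WT 3 stood above WT 2 by 0.52 and 0.52 for Sprr2a1, 0.45 and 0.42 for Sprr2a2 and 0.34 and 0.71 for Sprr2a3. Within each kind, KO and WT were close: KO 3 differed from the mean of WT 1 and WT 3 by -0.05 for Sprr2a1 and -0.04 for Sprr2a2, and KO 2 from WT 2 by -0.10 and -0.16. For Sprr2a3 these differences were -0.01 and 0.03. With WT at 2 libraries of 1 kind and 1 of the other, and KO at 1 of each, the makeup of the groups moves with their small difference.

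The genes whose pattern over the 5 libraries was nearest to the Sprr2a copies included X-linked genes that are known to escape X inactivation. Nearness was the root mean square of the differences in log2 value after each gene's own mean was subtracted. Among 22041 genes, those nearest to Sprr2a1 were Kdm5c (0.04), a histone demethylase on the X chromosome, Kdm6a (0.06), another X-linked demethylase, Naca (0.07), Gm49257 (0.07) and Pmp22 (0.07), a membrane protein of myelin. Kdm5c was at 4.23 and 4.69 in KO 2 and KO 3, against 4.79, 4.25 and 4.78 in WT. Nearest to Sprr2a2 were Gm49257 (0.04), Kdm5c (0.05), Gipc2 (0.06), Kdm6a (0.07) and Pyy (0.07), the peptide YY hormone. Nearest to Sprr2a3 were Eif2s3x (0.03), an X-linked subunit gene of translation initiation factor 2, Emp1 (0.06), a membrane protein of epithelia, Mrps34 (0.07), AA467197 (0.07) and S100a13 (0.08). The patterns are shallow: that of Sprr2a1 itself has a root mean square of 0.28, and 77 genes, 0.349%, lay within 0.5 times that size. The distances describe 5 libraries and carry no test.

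Markers of several cell types differed between the same libraries. The summed level of 7 enterocyte markers was 10.69 and 11.15 in KO 2 and KO 3, against 11.02, 10.61 and 10.82 in WT 1, WT 2 and WT 3, and that of 8 goblet cell markers was 12.28 and 12.39 in KO, against 12.46, 12.21 and 12.42 in WT. For both epithelial lists KO 2 and WT 2 were the 2 lowest libraries. Enterocyte markers had 5 members with a higher and 2 with a lower KO mean (median 0.22, and -0.11 without KO 3). Goblet markers had 2 higher and 6 lower (median -0.02). By limma 0 of either list were called, against 0.00454% of all genes, and 0 were under an unadjusted p of 0.05, against 2.23%. The 13 naive B cell markers ran the other way, with a summed level of 7.03 and 4.18 in KO 2 and KO 3, against 2.88, 6.29 and 2.69 in WT, and no marker of these 3 lists was at 0 in all 5 libraries. The 6 Paneth cell markers did not follow the other epithelial lists, with a summed level of 10.85 and 10.52 in KO 2 and KO 3, against 10.79, 10.85 and 10.69 in WT 1, WT 2 and WT 3, so KO 2 and WT 2 were their 2 highest libraries. Xist state and these summed levels thus all separate KO 2 and WT 2 from the other 3 libraries. The sums weigh the highest genes most, such as Muc2 (11.42 to 11.67) among the goblet markers. Single markers do not all follow the sums. Retnlb, a goblet marker, was at 4.68 in KO 2 and 4.12 in WT 1, and Lyz1, a Paneth marker, was highest in WT 1 (9.10). Which of Xist state and the summed levels goes with the Sprr2a level cannot be told apart.

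**Figure D3:**
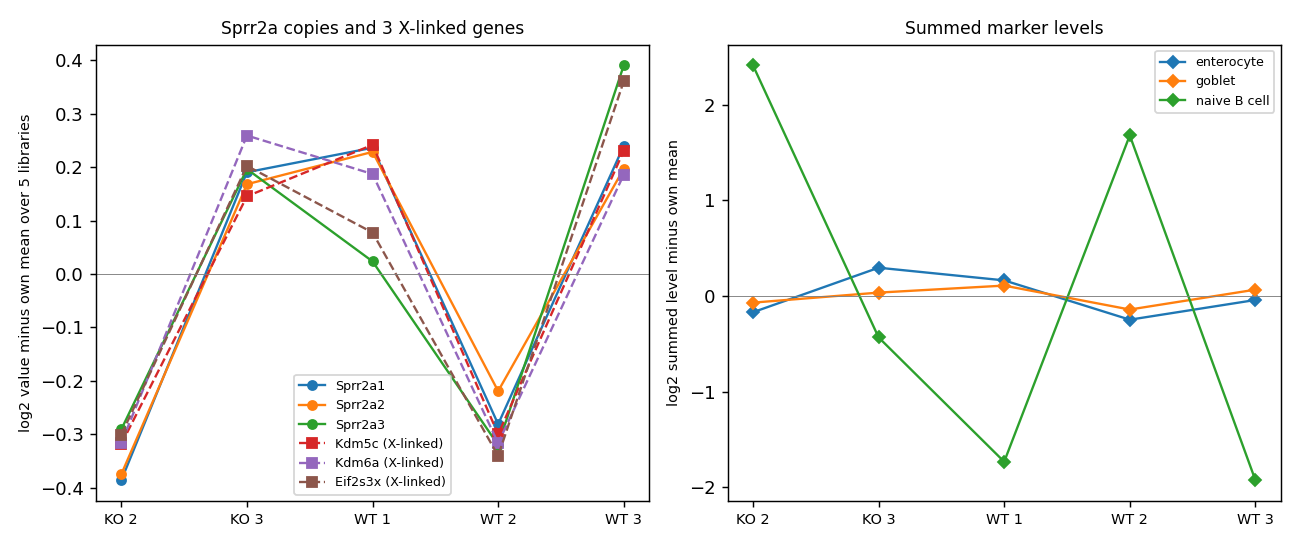
Left: log2 values of Sprr2a1, Sprr2a2, Sprr2a3 and the X-linked genes Kdm5c, Kdm6a and Eif2s3x by library, each minus its own mean over the 5 libraries. Right: log2 summed level of enterocyte, goblet and naive B cell markers, centred in the same way; lines only join points of 1 gene or list. KO 2 and WT 2 are low for all 6 genes at left and high for the naive B cell markers at right.

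Sprr2b (chr3:92316620-92318085), the next member along the chromosome after Sprr2a3, did not follow the Sprr2a copies. It was at 4.49 and 0.53 in KO 2 and KO 3, against 6.33, 4.78 and 4.54 in WT 1, WT 2 and WT 3. The groups did not overlap, but KO 2 at 4.49 lay next to WT 3 at 4.54, and most of the group difference is that of KO 3. The mean was 2.51 ± 2.80 in KO (SD, n = 2) and 5.22 ± 0.97 in WT (SD, n = 3), a log2 difference of -2.71, which is within the SD of KO. Without KO 3 the difference was -0.73 and without KO 2 it was -4.69. KO 3 stood 4.51 below the mean of the other 4 libraries, the lowest such deviation in KO 3 of all 22047 genes, and WT 1 stood 2.74 above the mean of the other 4, which 22 of 22047 genes reached. Genes at a low level cannot fall that far, and Sprr2b was picked with the contrast known, so these ranks carry no test. In KO 3 the Sprr2a copies were above their means over the 5 libraries, so Sprr2b and Sprr2a moved apart within 1 library.

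The 5 genes nearest to Sprr2b over the 5 libraries were all immunoglobulin genes or their partner. They were Igkj5 (0.46), a kappa light chain joining segment, Igha (0.62), the constant region of IgA, Igkv10-96 (0.68), a kappa variable segment, Jchain (0.73), which joins IgA molecules into dimers, and Igkc (0.75), the kappa constant region. Jchain was at 4.43 and 1.29 in KO 2 and KO 3, against 5.92, 4.33 and 3.02 in WT. Igha was at 6.68 and 3.30 in KO, against 8.45, 6.85 and 5.41 in WT. As for Sprr2b, KO 3 was the lowest and WT 1 the highest library for all 5 genes. The order differs in WT 3, where these 5 genes lay below KO 2 and Sprr2b was level with it. Only 7 of 22041 genes, 0.032%, lay within 0.5 times the root mean square of the Sprr2b profile, which was 1.93. Igha was also at 4.28 in KO 1 after rescaling, where Sprr2b has no value.

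These immunoglobulin genes are known as products of IgA plasma cells, so a list of 8 plasma cell genes was set beside them after their values were seen. Its summed level was 8.72 and 7.52 in KO 2 and KO 3, against 9.73, 8.66 and 8.02 in WT 1, WT 2 and WT 3, lowest in KO 3 and highest in WT 1. The list holds Igha, Igkc and Jchain, which were picked above for their nearness to Sprr2b, so this order adds no independent support. Derl3, a protein of the secretory pathway that is also named after its values were seen, was at 1.74 and 1.10 in KO, against 2.26, 1.64 and 1.26 in WT. Xbp1, which epithelium also expresses, was at 6.92 and 7.01 in KO, against 6.93, 6.89 and 7.12 in WT. Sdc1, a surface proteoglycan of plasma cells and epithelium, was at 4.98 and 5.11 in KO, against 4.80 to 5.12 in WT. Neither Xbp1 nor Sdc1 was lowest in KO 3. Mzb1 and Tnfrsf17, also of the list and also named after their values were seen, were lowest in KO 3 and highest in WT 1, as was Derl3. Mzb1 was at 1.67 and 0.29 in KO, against 1.86, 1.75 and 0.46 in WT. Tnfrsf17, which was low throughout, was at 0.32 and 0.00 in KO, against 0.86, 0.16 and 0.06 in WT. By limma 0 of the 8 passed and 0 had an unadjusted p under 0.05, against 2.23% of all genes (smallest adjusted p = 0.99998). The 50-base words of Sprr2b that occur elsewhere occur in Sprr2a copies alone, and none occurs in an immunoglobulin gene. The part of plasma cells in the Sprr2b values was not tested.

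**Figure D4:**
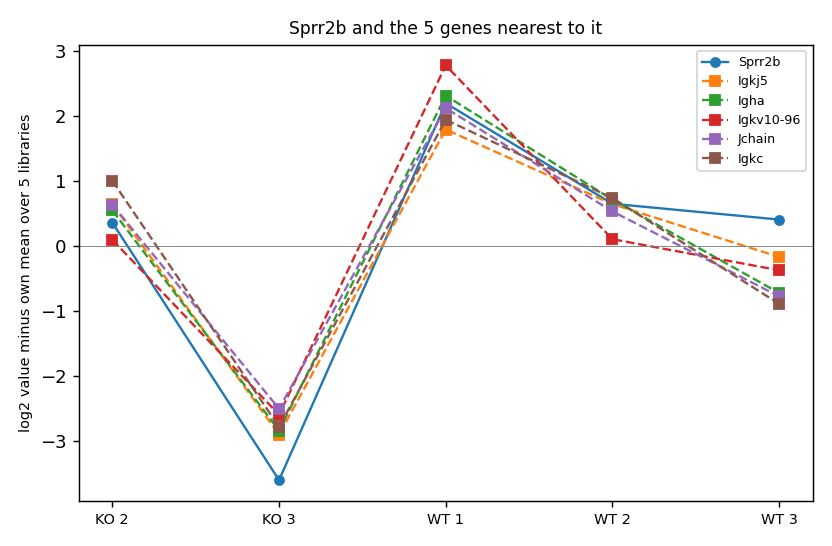
Log2 values of Sprr2b and the 5 genes nearest to it by library, each minus its own mean over the 5 libraries; lines only join points of 1 gene. All 6 genes are lowest in KO 3 and highest in WT 1.

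Sprr1a (chr3:92483952-92485895, minus strand), known as a gene that injured cells switch on, was low and variable. It was at 1.54 and 2.65 in KO 2 and KO 3, against 1.66, 0.83 and 2.50 in WT 1, WT 2 and WT 3. The groups overlapped, with means of 2.10 ± 0.78 in KO (SD, n = 2) and 1.66 ± 0.83 in WT (SD, n = 3) and a log2 difference of 0.43. KO 3 and WT 3 were the high libraries and WT 2 the low one. The genes nearest to it were Adipoq (0.14), the fat cell hormone adiponectin, Gm3776 (0.16), Thrsp (0.17), a lipid synthesis gene, Plin1 (0.21), the coat protein of fat droplets, and Saa1 (0.22), an acute phase protein that gut epithelium also makes. Adipoq was at 1.95 and 2.75 in KO, against 1.85, 1.03 and 2.97 in WT. The summed level of 7 adipocyte genes, a list added after these values were seen, was 5.66 and 6.85 in KO 2 and KO 3, against 5.32, 4.77 and 6.78 in WT 1, WT 2 and WT 3, with KO 3 and WT 3 high and WT 2 low, as for Sprr1a. Of the 7, 6 had a higher KO mean (median 0.45, and -0.0024 without KO 3). By limma 0 passed and 0 had an unadjusted p under 0.05, against 2.23% of all genes. The part of attached fat in the Sprr1a values was not tested.

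Ly6d (chr15:74762056-74763620, minus strand) was the member with higher KO values. It was at 4.48 and 4.18 in KO 2 and KO 3, against 1.76, 3.50 and 3.77 in WT 1, WT 2 and WT 3. KO 1 was at 3.91 as deposited and 2.93 after rescaling, between WT 1 and WT 2, so with KO 1 the groups overlapped. The mean was 4.33 ± 0.22 in KO without KO 1 (SD, n = 2) and 3.01 ± 1.09 in WT (SD, n = 3), a log2 difference of 1.32. With KO 1 rescaled the KO mean was 3.86 ± 0.82 (SD, n = 3) and the difference 0.86. WT 1 sets much of the WT mean: it stood 2.22 below the mean of the other 4 libraries, which 4 of 22047 genes reached, Ly6d among them, and without WT 1 the difference was 0.70. Ly6d was picked with this contrast known, so that rank carries no test. If the log base is e, KO 1 after rescaling is at 2.88 on the deposited scale, still between WT 1 and WT 2.

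Ly6d did not follow the B cell markers, although it is used as a B lineage marker. Cd79a, a signalling chain of the B cell receptor, was at 4.03 and 1.25 in KO 2 and KO 3, against 0.59, 3.10 and 0.31 in WT 1, WT 2 and WT 3, and Ms4a1, which encodes CD20, was at 3.61 and 1.28 in KO, against 0.38, 2.79 and 0.52 in WT. Ly6d in WT 3 was above WT 2, where the B cell markers were the reverse, and KO 3 differed from KO 2 by -0.31 for Ly6d, against a far wider gap for both B cell genes. The list had 13 of 13 members with a higher KO mean (median 0.98, against 0.03 for all genes), and 0 of 13 had groups that did not overlap, against 13.6% of all genes. By limma 0 passed and 0 had an unadjusted p under 0.05, against 2.23% of all genes (smallest adjusted p = 0.99998). Its median without KO 2 was -0.09.

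The genes nearest to Ly6d were Cfhr2 (0.32), a complement factor H related gene, C3 (0.40), the central complement protein, Cep85 (0.42), a centrosome protein, Commd5 (0.49) and Gm4724 (0.53). C3 was at 4.39 and 4.07 in KO 2 and KO 3, against 2.74, 3.83 and 3.99 in WT 1, WT 2 and WT 3, and all 5 genes were lowest in WT 1. Only 3 genes, 0.014%, lay within 0.5 times the root mean square of the Ly6d profile, which was 0.95. KO 1, which was not used to find them, was low after rescaling for Cfhr2 (0.53) and C3 (1.63) and high for Commd5 (3.07). By limma without KO 1, Cep85 had a log2 difference of 1.07 ± 0.28 (SE, adjusted p = 0.99998), and it lies on chromosome 4, where KO 1 has no values.

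**Figure D5:**
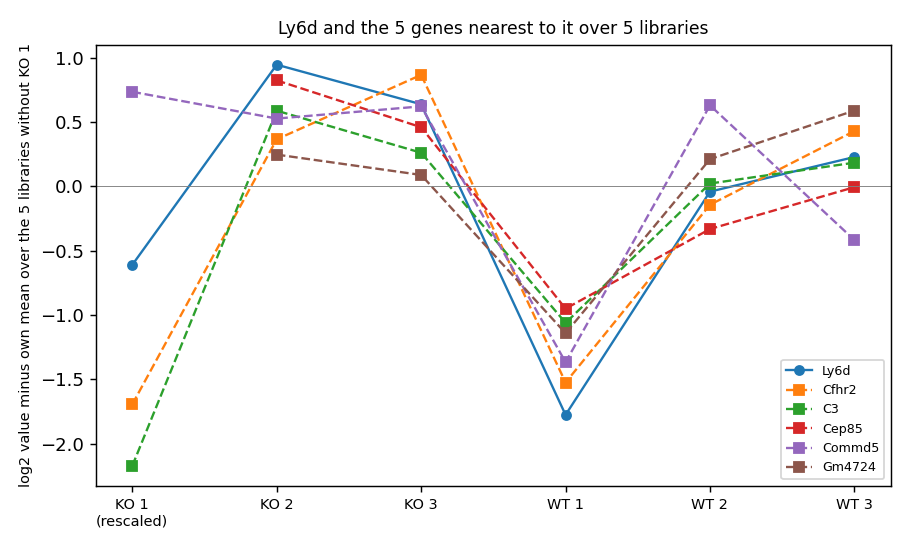
Log2 values of Ly6d and the 5 genes nearest to it by library, each minus its own mean over the 5 libraries without KO 1; KO 1 is shown after rescaling where it holds values, and lines only join points of 1 gene. All 6 genes are lowest in WT 1 among the 5 libraries, and KO 1 lies low for Cfhr2 and C3 but high for Commd5.

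The neighbours of Ly6d on chromosome 15 did not share its pattern. Lynx1, on its downstream side, a Ly6 protein that acts on nicotinic receptors, was at 2.58 and 2.32 in KO 2 and KO 3, against 2.19, 2.78 and 2.19 in WT 1, WT 2 and WT 3. Gml, another Ly6 family gene of the cluster, was at 1.63 and 2.87 in KO, against 1.46, 0.91 and 3.17 in WT, and Gml2 at 0.98 and 2.01 in KO, against 0.58, 0.63 and 2.10 in WT. Slurp2 and Lypd2 were listed at 0 in the 5 libraries, and Psca and Ly6k stood above 0 in WT 2 alone. Gml and Gml2 were high in KO 3 and WT 3, the libraries in which Sprr1a was high.

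Of 34 other Ly6 and uPAR family genes, 25 were above the low-value limit, 13 with a higher and 12 with a lower KO mean (median difference 0.01, against 0.03 for all genes). By limma 0 passed and 0 had an unadjusted p under 0.05, against 2.23% of all genes, and 1 had groups that did not overlap, against 13.6%. Lypd8, which keeps bacteria off the colon epithelium, lay between 9.74 and 10.21 in the 5 libraries. Ly6a, the Sca-1 antigen, was at 6.30 and 4.72 in KO, against 6.05, 5.47 and 6.15 in WT, and Ly6e at 7.44 and 6.41 in KO, against 7.10, 7.28 and 6.79 in WT. KO 3 was the lowest library for Ly6a and Ly6e, as it was for the summed interferon-stimulated genes, at 7.92 and 6.63 in KO 2 and KO 3, against 8.21, 7.31 and 7.70 in WT. All 14 interferon genes had a lower KO mean (median -0.62, and -0.03 without KO 3). By limma 0 passed and 1 had an unadjusted p under 0.05, against 2.23% of all genes (smallest adjusted p = 0.99998).

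The presence of stratified squamous epithelium, the usual home of these genes, was checked with its keratins and cornified envelope genes. Of 13 squamous markers 10 were above the low-value limit, 6 with a higher and 4 with a lower KO mean (median 0.04, and -0.02 after median centring). By limma 0 of the 10 passed, 1 had an unadjusted p under 0.05, against 2.23% of all genes, and 4 had groups that did not overlap, against 13.6% of all genes. These 4 did not share a direction: Col17a1 and Trp63 were higher in KO, and Krt5 and Krt10 were lower. All were low, at most 0.93 in any of the 5 libraries. Trp63, named after its values were seen, was at 0.04 and 0.08 in KO, against 0.02, 0.04 and 0.04 in WT. Krt10, a keratin of upper skin layers, was at 0.84 and 0.85 in KO 2 and KO 3, against 0.92, 0.93 and 0.90 in WT, and Krt5, the basal keratin, was at 0.04 and 0.12 in KO, against 0.15, 0.13 and 0.17 in WT. The summed level of the 10 squamous markers above the limit was 1.67 and 1.76 in KO, against 1.52, 1.56 and 1.45 in WT. Col17a1, a hemidesmosome collagen, had the smallest p among these 10, at 0.50 and 0.54 in KO, against 0.33, 0.34 and 0.26 in WT (limma adjusted p = 0.99998). Of 35 genes of the cornified envelope and the epidermal differentiation complex, 20 were listed at 0 in all 5 libraries and 8 were above the limit. Of these 8, 4 had a higher and 4 a lower KO mean (median 0.03). By limma 0 of them were called and 0 were under an unadjusted p of 0.05, against 2.23% of all genes. Evpl, the envoplakin gene, was at 2.47 and 2.49 in KO, against 2.56, 2.44 and 2.17 in WT.

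On the same chromosome, 12 of the 13 S100 genes of the complex were above the limit, 7 with a higher and 5 with a lower KO mean, a median difference of 0.01 and 0 called by limma. S100a10, an annexin partner, was at 6.97 and 7.17 in KO 2 and KO 3, against 7.02, 6.80 and 7.36 in WT. S100a8, a subunit of calprotectin from neutrophils, had the smallest p, at 0.69 and 0.99 in KO, against 0.00, 0.59 and 0.49 in WT (limma adjusted p = 0.99998). S100a8 was the 1 of 12 with a limma unadjusted p under 0.05, against 2.23% of all genes. S100a9, the other calprotectin subunit, named after its values were seen, had a lower KO mean. It was at 0.23 and 0.00 in KO, against 0.00, 0.19 and 0.36 in WT, and both genes were low throughout.

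Genes of the settings in which Sprr2a and Sprr1a are known to rise showed no call. Microbe-responsive defence genes had 7 members with a higher and 9 with a lower KO mean (median -0.06). Reg3g, an antibacterial lectin, was at 11.18 and 11.30 in KO 2 and KO 3, against 11.17, 10.85 and 11.40 in WT. Type 2 response genes had 9 higher and 7 lower (median 0.02), with Retnlb, a goblet cell product, at 4.68 and 4.81 in KO, against 4.12, 3.85 and 5.12 in WT, and Alox15, the member with the smallest p, at 1.08 and 1.02 in KO, against 0.80, 0.63 and 0.71 in WT. Regenerative epithelium genes had 12 higher and 6 lower (median 0.07), and transcription factors of barrier epithelium 13 higher and 7 lower (median 0.04), with Klf4 at 5.70 and 6.13 in KO, against 5.88, 5.40 and 5.86 in WT. Villus tip genes had 7 of 8 higher (median 0.54), a value that was -0.06 without KO 3, and Paneth cell genes 1 of 6 higher (median -0.09, and 0.12 without KO 3). In these lists limma called 0 genes (smallest adjusted p = 0.99998 in each). Of them 1 type 2 gene and none of the others had a limma unadjusted p under 0.05, against 2.23% of all genes.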

How the data were processed

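RNA-seq of 6 mouse intestine libraries was deposited as 1 table of log values per gene. The labels give polyadenylated RNA, a stranded kit for low input and the build mm10; the aligner, counting tool, strand setting, abundance unit and log base, like the added constant, were not stated in labels or file. The authors' deposited values are taken as log2(abundance + 1), and base 2 is an assumption: base e would make differences larger. Of 32245 rows, 26 with a date for a symbol were left out. Depth is unknown, so no counting interval can be given.

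KO 1 covers part of the genome and was left out of the fit; where it enters, it was scaled down by 2.12 on the linear scale, from 2160 covered genes with a mean of 4 or more. Genes above 0 in at least 3 of the 5 other libraries (22047) were compared (R 4.3.3) using limma 3.58.1 and its trended variance, 2-sided, under Benjamini-Hochberg adjustment and a threshold of 0.05, after a trial on simulated data. Marker lists came from general knowledge; of each, the 4 highest genes and the 2 with the smallest p could be named, and the 5 genes nearest to each member. The members, lists and rules were chosen with earlier results of these data known. Positions are from GENCODE vM21, promoter windows from RefSeq (GRCm38.p6), and alignments used Biopython 1.88. Alternatives were other scalings, filters, constants, the log base, the replicate block, each library left out and, added after seeing the data, Xist as a covariate.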

Additional observations from a re-analysis of the deposited data

How the results depend on the processing

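The count of 1 called gene fell to 0 with all 6 libraries as deposited, with the replicate block, no filter, the stricter filter, an added constant of 0.1 and Xist as a covariate, and it was 0 with each single library left out (range 0 to 0). The Sprr sum, at -0.20, moved by more than the spread only with all 6 libraries as deposited (-3.42), where the missing values of KO 1 enter as 0; over left-out libraries it ran from -0.46 to 0.05. The Ly6d difference, at 1.32, ran from 0.70 to 1.70 over left-out libraries and was 0.70 with the replicate block, 0.94 with a constant of 5 and 0.86 with KO 1 rescaled; it stayed positive in each alternative run. Under the replicate block the Sprr sum was -0.10. Numbers 2 and 3 are the only ones shared by KO and WT in the fit, and deviations of same-numbered libraries correlated at 0.28 and 0.33 over genes, so pairing cannot be established; WT 1 has no partner, and the block gives the values seen without WT 1. For single members 5 values moved by more than the spread and 80 did not: Sprr2a1, Sprr2a2 and Sprr2a3 with the zeros of KO 1 kept, and Sprr2b without KO 2 or KO 3. For list medians 22 moved and 249 did not. Sprr2d and Sprr2h were too low for such a comparison. Precision is limited by 2 KO libraries and unknown depth.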
